A study of Rattus norvegicus with 16 samples.

Results

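The genes described here are 10 Hox genes in the rat lumbar disc: Hoxb2, Hoxb3, Hoxb4, Hoxb6, Hoxb7, Hoxb8 and Hoxb9 of the Hoxb cluster, and Hoxc4, Hoxc5 and Hoxc6 of the Hoxc cluster. They were taken by name from the deposited single-cell tables and are 10 of the 13596 genes listed in all 4 groups (14930 in any group). The discs came from 8 male Sprague-Dawley rats that were 8 weeks old at surgery. In each rat the L4-5 and L5-6 discs were stabbed once with a 27G needle and later pooled as the lumbar disc puncture sample (LDP), while the unpunctured L2-3 and L3-4 discs of the same rat were pooled as the control sample (CON). Rats 1 to 4 were taken at 2 weeks and rats 5 to 8 at 8 weeks, which gave 16 libraries of 10x Genomics 3′ single-cell RNA sequencing in 4 groups of 4.

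Hox genes encode homeodomain transcription factors that lie in clusters, and within a cluster the order of the genes follows the order in which they are used from head to tail. Genes at one end, such as Hoxb2 and Hoxb3, act in the hindbrain and neck, and genes further along the cluster, such as Hoxb8, Hoxb9 and Hoxc6, reach their front limit in the trunk. Fibroblasts, cartilage cells and other mesenchymal cells of the adult keep part of this pattern as a positional memory, together with TALE cofactors (Pbx and Meis proteins) that bind DNA with the Hox proteins and Polycomb and trithorax proteins that hold Hox chromatin closed or open.

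In these samples every LDP disc lay caudal to every CON disc of the same rat, so that puncture and spinal level cannot be told apart for any LDP to CON difference below. The rats of 8 weeks were also older at harvest than those of 2 weeks and were separate animals, so time after surgery and age cannot be told apart either. Each library pools the discs of 1 rat, and the 2 libraries of a rat were compared as a pair.

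The libraries held 2221 to 15918 cells (149272 in all) with medians of 3861 to 8092 unique molecular identifiers (UMIs) per cell. Any pair of libraries shared at most 75 cell barcodes, 0.720% of the smaller library or less. Cell classes were those of the authors: intervertebral disc (IVD) cells, 127077 in number, endothelial, myeloid and lymphoid cells, and 1 unnamed class. At 2 weeks the IVD cells were split further into outer annulus fibrosus (OAF, the fibrous rim), inner annulus fibrosus (IAF) and nucleus pulposus (NP, the gel-like core). The summed level of 6 OAF markers averaged 67860 CPM (UMIs scaled to a total of 1000000 per cell) in the OAF and 4216 CPM in the NP of CON discs, and that of the 5 endothelial markers (4 listed) averaged 5808 CPM in the endothelial class and 224 CPM in the IVD class. The 8 NP markers summed to 1247 CPM in the NP, 1137 CPM in the IAF and 595 CPM in the OAF, so NP and IAF were weakly parted by them. The subclusters are numbered in the deposited tables, and subcluster 1 was read as NP and 2 as IAF in CON but 1 as IAF and 2 as NP in LDP, so which of these is NP and which IAF is uncertain, and with it each LDP to CON difference within NP or IAF.

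All 10 genes were scarce. Over the IVD class of the 16 libraries they gave 21179 UMIs, and the share of IVD cells with at least 1 UMI ran from 0.415% for Hoxb2 to 4.41% for Hoxb7. No IVD cell held more than 6 UMIs of any of them. A level is given below as mean CPM, the mean over the cells of a class in 1 library, and since the 3′ reads count transcripts only where the annotated end is caught, levels are compared between samples and classes and not between genes. In the RefSeq annotation of the assembly GRCr8, Hoxc6 overlaps Hoxc4 and Hoxc5, so reads could have been split between these 3 genes, Hoxb6 overlaps the antisense RNA Hoxb5os and Hoxb3 a long non-coding RNA.

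The first comparison asked whether disc cells of the punctured, more caudal discs differed from those of the unpunctured discs. Every one of the 10 genes had a lower mean CPM in LDP than in CON at both times. The share of all genes with that direction at both times was not counted, and the median gene was lower in LDP too, as given below. Hoxc6, at the trunk end of the Hoxc genes studied, and Hoxb8 passed the test for being lower in LDP over both times, and no member passed it for being higher. The 10 genes together summed to 31.9 CPM ± 5.34 (SD, n = 4) in CON and 24.6 CPM ± 4.69 in LDP at 2 weeks, and to 33.3 CPM ± 3.50 in CON and 23.4 CPM ± 3.08 in LDP at 8 weeks. The sum was lower in LDP in 7 of 8 rats, rat 2 being the exception.

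Hoxc6 had the largest mean change over both times on the log2(mean CPM + 1) scale, which understates changes of low genes. At 8 weeks alone the LDP to CON ratio of means was lower for Hoxc5 (0.351) and Hoxb2 (0.394) than for Hoxc6 (0.410). In CON at 2 weeks it stood at 3.60, 4.54, 5.90 and 6.74 CPM in rats 1 to 4, against 1.54, 3.73, 3.58 and 2.02 CPM in LDP. In CON at 8 weeks it stood at 5.31, 5.98, 4.04 and 4.68 CPM in rats 5 to 8, against 0.815, 2.44, 2.51 and 2.45 CPM in LDP. It was lower in LDP in each of the 8 rats, with groups that did not overlap at 8 weeks and met only at 3.60 (CON, rat 1) and 3.73 CPM (LDP, rat 2) at 2 weeks. The mean over both times was 5.10 CPM in CON and 2.39 CPM in LDP, a ratio of 0.468. On the log2(mean CPM + 1) scale Hoxc6 fell by 0.89 (SE 0.158, adjusted p = 0.0167, limma with the rat as block).

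**Figure D1:**
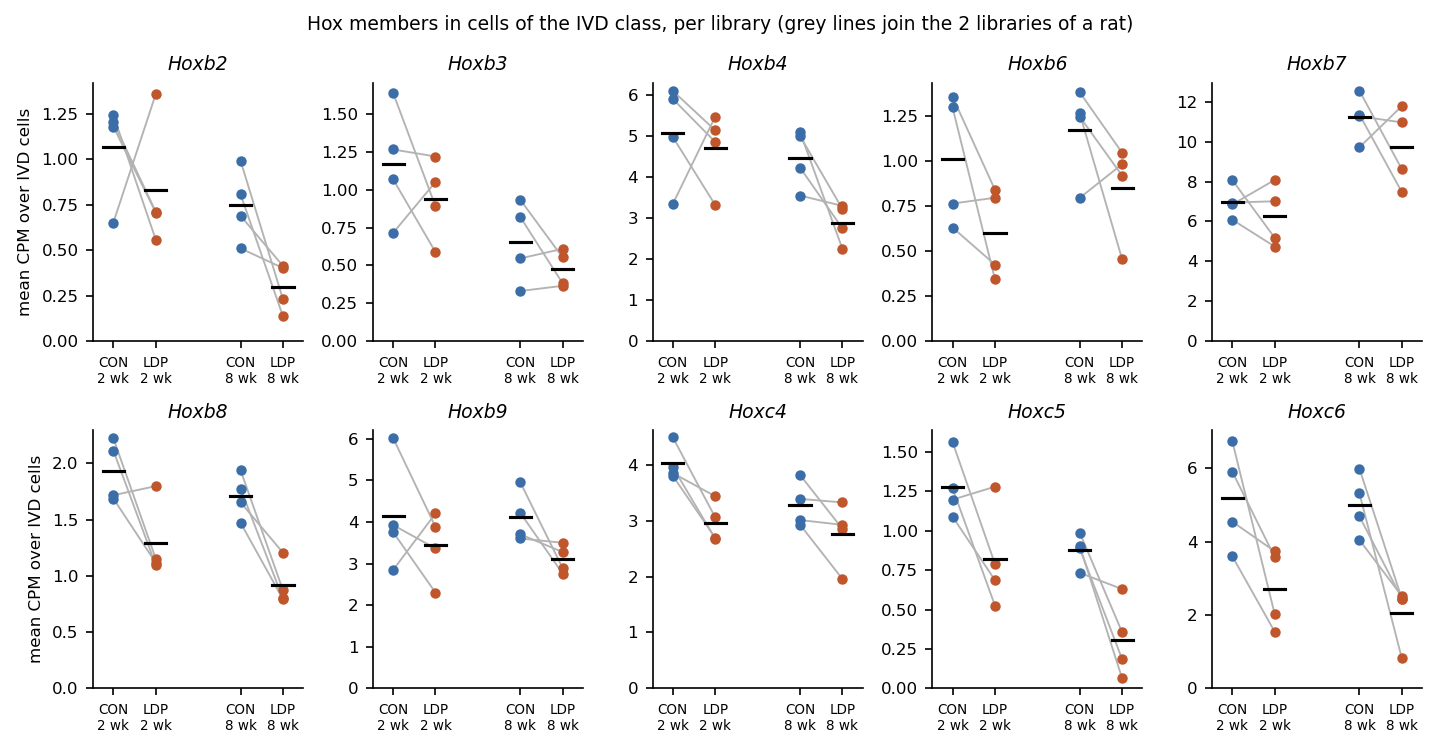
Level of each of the 10 genes in IVD cells, as mean CPM over cells on the vertical axis (each panel has its own scale), with 1 point per library, a black bar at each group mean and a line that joins both libraries of each rat, at 2 weeks (rats 1 to 4) and 8 weeks (rats 5 to 8). The 8 lines of Hoxc6 and the 8 of Hoxc4 all slope down from CON to LDP, while those of Hoxb7 slope down in 5 of 8 rats and stand higher at 8 weeks.

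Hoxc4, the neighbour at the neck end of the same cluster, was lower by mean CPM in LDP in each of the 8 rats too. It stood at 3.81, 3.96, 3.85 and 4.50 CPM in CON and at 2.70, 2.68, 3.44 and 3.06 CPM in LDP of rats 1 to 4, with no overlap between the groups, as in 4.42% of all genes. At 8 weeks it stood at 2.93, 3.82, 3.01 and 3.39 CPM in CON and 1.96, 2.86, 2.93 and 3.33 CPM in LDP, where the groups overlapped. Over all cells, whatever their class, Hoxc4 was lower in LDP in 3 of 4 rats of 8 weeks. The share of IVD cells with Hoxc4 at equal depth, given below, had a higher mean in LDP at 8 weeks. The mean change over both times was -0.27 (SE 0.0875, adjusted p = 0.0803), which missed the threshold of 0.05.

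Hoxc5, between them, lay at 1.09, 1.20, 1.27 and 1.56 CPM in CON and at 0.687, 1.28, 0.525 and 0.790 CPM in LDP at 2 weeks. At 8 weeks it lay at 0.888, 0.904, 0.734 and 0.988 CPM in CON and at 0.185, 0.0634, 0.630 and 0.356 CPM in LDP. The groups of 8 weeks did not overlap, and LDP was lower in 7 of 8 rats. Hoxc5 lay under the limit of a mean of 1 CPM over the 16 libraries; without that limit its mean change was -0.44 (adjusted p = 0.0441, limma), a call that edgeR without the limit did not give (adjusted p = 0.0592).

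The 3 Hoxc genes together summed to 10.5 CPM ± 1.84 in CON and 6.51 CPM ± 1.34 in LDP at 2 weeks, and to 9.17 CPM ± 1.20 and 5.13 CPM ± 1.49 at 8 weeks. The highest LDP library (7.69 CPM) lay below the lowest CON library (7.79 CPM) over both times. The share of all genes with that order over both times was not counted. The order also turned with the measure. For the share of IVD cells with these 3 genes at equal depth, given below, the groups overlapped at 8 weeks and not at 2 weeks. At 8 weeks the highest LDP library held 0.839% and the lowest CON library 0.796%. The 7 Hoxb genes together summed to 21.4 CPM ± 3.98 in CON and 18.1 CPM ± 3.52 in LDP at 2 weeks, and to 24.1 CPM ± 2.76 and 18.2 CPM ± 2.53 at 8 weeks, with overlap at both times.

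Among the Hoxb genes, Hoxb8, a trunk gene, stood at 1.69, 1.72, 2.11 and 2.22 CPM in CON and at 1.11, 1.80, 1.09 and 1.15 CPM in LDP at 2 weeks. At 8 weeks it stood at 1.47, 1.94, 1.78 and 1.65 CPM in CON and at 0.792, 0.872, 0.799 and 1.21 CPM in LDP. It was lower in LDP in 7 of 8 rats, the exception being rat 2, and the groups of 8 weeks did not overlap. Hoxb8 fell by 0.43 (SE 0.0984, adjusted p = 0.0336) over both times. That call was lost with edgeR (adjusted p = 0.0522), after centring each library on the median gene (adjusted p = 0.0611), and without any one of rats 1, 3, 5, 6 and 7 (adjusted p of 0.0679 to 0.0918).

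Hoxb4, a gene of the neck region, stood at 4.98, 3.34, 5.90 and 6.10 CPM in CON and at 3.32, 5.47, 4.86 and 5.14 CPM in LDP at 2 weeks. At 8 weeks it stood at 5.10, 5.00, 4.23 and 3.55 CPM in CON and at 2.25, 3.22, 2.75 and 3.30 CPM in LDP. The groups overlapped at 2 weeks and not at 8 weeks. The change was -0.09 (adjusted p = 0.855) at 2 weeks and -0.49 (adjusted p = 0.184) at 8 weeks, a difference of -0.41 between the times that was not past the threshold (adjusted p of 1.00).

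Hoxb9, the most caudal Hoxb gene of the set, stood at 3.93, 2.85, 6.02 and 3.76 CPM in CON and at 3.36, 4.20, 3.88 and 2.30 CPM in LDP at 2 weeks. At 8 weeks it stood at 4.96, 4.22, 3.70 and 3.60 CPM in CON and 2.89, 2.76, 3.28 and 3.50 CPM in LDP, where the 4 LDP libraries lay below the 4 CON libraries. Its mean change was -0.26 (SE 0.125, adjusted p = 0.190). Hoxb7 had the smallest difference of the tested members, -0.18 (SE 0.122, adjusted p = 0.319), and was lower in LDP in 5 of 8 rats. It is taken up again with the comparison of the times.

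The remaining Hoxb genes were near or under 1 CPM. Hoxb2 averaged 1.07 CPM ± 0.280 in CON and 0.833 CPM ± 0.357 in LDP at 2 weeks, and 0.749 CPM ± 0.203 and 0.296 CPM ± 0.135 at 8 weeks, where the groups did not overlap. Hoxb3 averaged 1.17 CPM ± 0.386 and 0.938 CPM ± 0.269 at 2 weeks, and 0.658 CPM ± 0.272 and 0.477 CPM ± 0.123 at 8 weeks. Hoxb6 averaged 1.01 CPM ± 0.369 and 0.602 CPM ± 0.254 at 2 weeks, and 1.17 CPM ± 0.258 and 0.852 CPM ± 0.269 at 8 weeks. LDP was lower in 7 rats for Hoxb2, 5 for Hoxb3 and 6 for Hoxb6. With no limit on low values their mean changes were -0.31, -0.16 and -0.28 (adjusted p of 0.148, 0.337 and 0.141 in that order, limma).

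Of the 6 members above the limit, 2 were called lower in the mean LDP effect and 0 higher, where 5.68% of the 11150 genes tested were called lower and 1.96% higher. That background turns with the scaling: 219 genes were called higher and 633 lower here, 542 and 280 after centring each library on the median gene, and 460 and 395 with edgeR, where 1 of the 6 members, Hoxc6, was called lower. Their median change was -0.28, and that of all genes was -0.12, also below 0. Relative to the median gene of each library Hoxc6 fell by 0.75 (adjusted p = 0.0181). By mean CPM in IVD cells both Hoxc6 and Hoxc4 were lower in LDP in all 8 rats, as were 8.30% of genes. At 8 weeks all LDP libraries lay below all CON libraries for Hoxb4, Hoxb8, Hoxb9 and Hoxc6 of the 6 tested members, and for 11.4% of genes. Hoxb2 and Hoxc5, under the limit, did not overlap at 8 weeks either, and that share does not cover them. In all 4 rats of 8 weeks LDP was lower for Hoxb4, Hoxb8, Hoxb9, Hoxc4 and Hoxc6, beside 26.3% of genes, and in all 4 rats of 2 weeks for Hoxc4 and Hoxc6, beside 14.1% of genes.

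**Figure D2:**
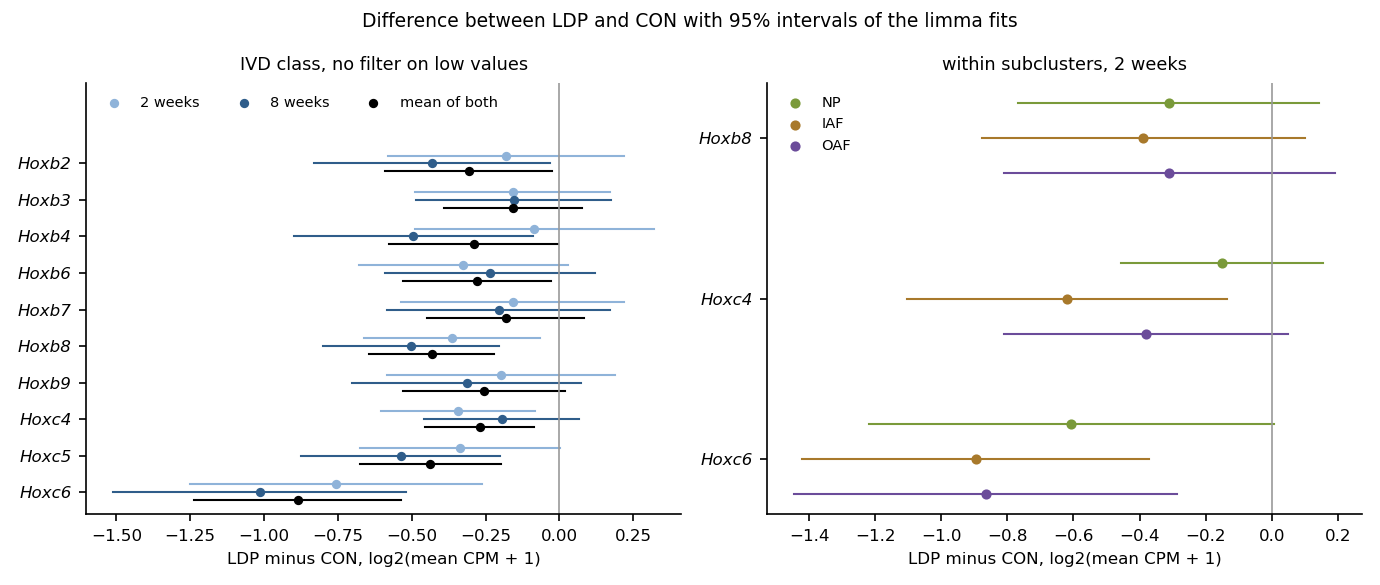
LDP minus CON on the log2(mean CPM + 1) scale (horizontal axis), with 95% intervals from limma, for the 10 genes in IVD cells at 2 weeks, at 8 weeks and as the mean of both (left, no limit on low values) and for Hoxb8, Hoxc4 and Hoxc6 within NP, IAF and OAF cells at 2 weeks (right). All 10 means of both times lie to the left of 0, Hoxc6 farthest at -0.89.

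Taken singly, the times gave no call for a member. At 2 weeks Hoxc6 differed by -0.76 (adjusted p = 0.261), beside -0.36 for Hoxb8 (adjusted p = 0.372) and -0.34 for Hoxc4 (adjusted p = 0.344), where 0.0897% of genes were called higher and 0.0359% lower. At 8 weeks Hoxc6 differed by -1.02 (adjusted p = 0.0812) and Hoxb8 by -0.50 (adjusted p = 0.114), where 0.117% of genes were called higher and 0.152% lower. At an unadjusted p under 0.05, Hoxb8, Hoxc4 and Hoxc6 passed at 2 weeks, and Hoxb4, Hoxb8 and Hoxc6 at 8 weeks, each lower in LDP, as did 7.54% and 17.4% of all genes in that direction. After centring, 861 genes were higher and 496 lower at that threshold at 2 weeks, and 1242 and 781 at 8 weeks, against 461 and 841, and 411 and 1939, before. The change of Hoxc6 at 8 weeks minus that at 2 weeks was -0.26 (95% interval -0.96 to 0.44).

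Over all cells of the libraries, whatever their class, Hoxc6 and Hoxb8 differed by -0.84 and -0.46 and did not pass (adjusted p = 0.0564 and 0.0752), where 0.543% of the 11787 genes tested were called lower and 0.297% higher.

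The share of IVD cells with a UMI of any of the 10 genes was compared after thinning each cell to 1000 UMIs, since depth differed between libraries. It was 3.03% ± 0.361 in CON and 2.32% ± 0.472 in LDP at 2 weeks, and 3.11% ± 0.304 and 2.27% ± 0.327 at 8 weeks (2064 shallower cells of all classes left out). For the 3 Hoxc genes the share was 1.08% ± 0.143 in CON and 0.617% ± 0.148 in LDP at 2 weeks, and 0.902% ± 0.120 and 0.569% ± 0.215 at 8 weeks. For Hoxc4 alone the share was 0.420% ± 0.0582 in CON and 0.279% ± 0.0533 in LDP at 2 weeks. At 8 weeks the Hoxc4 share was higher in LDP, at 0.236% ± 0.0544 in CON and 0.302% ± 0.0757 in LDP, with overlap. The direction of Hoxc4 at 8 weeks therefore turned with the measure. Before thinning, 10.3% to 19.4% of the IVD cells of a library held a UMI of any member.

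Markers of other compartments moved with the same comparison in the IVD class. Of 6 OAF markers 3 fell (Igfbp5 by 1.14, Myoc by 1.23 and Lum by 1.10), 1 after centring and 2 with edgeR, and the summed level of the 6 spanned 8681 to 15017 CPM in CON and 6663 to 13307 CPM in LDP at 2 weeks, and 2388 to 4268 CPM in CON and 1012 to 2751 CPM in LDP at 8 weeks. Of 4 tested endothelial markers 2 fell (Plvap by 1.88 and Cdh5 by 1.49), with sums of 173 to 335 CPM in CON and 77.0 to 207 CPM in LDP at 2 weeks, and 94.5 to 114 CPM in CON and 58.8 to 88.4 CPM in LDP at 8 weeks. Of 5 pericyte and smooth muscle markers 1 fell, Pdgfrb by 0.54 (adjusted p = 0.0361, 0.0445 with edgeR and 0.0860 after centring). None of 8 NP markers was called, with a median of 0.27, and after centring Cd24 was called higher (0.46, adjusted p = 0.0382) and the median was 0.40. Lum lost its call after centring and with edgeR (adjusted p = 0.0549 and 0.0512), Myoc after centring (0.0502) and Cdh5 with edgeR (0.0535). Since in a mean over a class fewer cells of a kind and less RNA in each cannot be told apart, Hoxc6 was also measured within each subcluster.

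Within each subcluster the mean of Hoxc6 was lower in LDP as well. In OAF cells it stood at 10.3, 19.1, 15.7 and 24.4 CPM in CON and at 4.65, 11.9, 13.3 and 7.36 CPM in LDP of rats 1 to 4. In IAF cells it stood at 2.26, 4.07, 5.24 and 5.01 CPM in CON and at 1.58, 1.92, 2.29 and 1.08 CPM in LDP. In NP cells it stood at 2.76, 1.86, 4.41 and 4.60 CPM in CON and at 1.17, 2.40, 2.94 and 1.08 CPM in LDP. LDP was lower in 4 of 4 rats in OAF and IAF and in 3 of 4 in NP, where rat 2 went the other way (the LDP values of NP and IAF together ran from 1.08 to 2.94 CPM and the CON values from 1.86 to 5.24 CPM, however these are named), and the groups overlapped in all 3. LDP was lower in all 4 rats for 13.8% of genes in OAF, 19.4% in IAF and 10.3% in NP.

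On the log2 scale these differences of Hoxc6 were -0.87 in OAF (adjusted p = 0.258), -0.90 in IAF (adjusted p = 0.202) and -0.61 in NP (adjusted p = 0.507). None passed, as with Hoxc4 (-0.38, -0.62 and -0.15) and Hoxb8 (-0.31, -0.39 and -0.31 in the same order). In OAF, where all 10 members could be tested, Hoxc5 differed by -0.58 (adjusted p = 0.387). No member was called in any subcluster, where 0% of genes were called in NP and IAF, and 1.08% higher and 0.0257% lower in OAF. At an unadjusted p under 0.05, Hoxc6 and Hoxc5 passed in OAF and Hoxc6 and Hoxc4 in IAF, each lower in LDP, as were 6.1% of genes in OAF and 11% in IAF. Over all genes at that threshold 556 were higher and 526 lower in NP, 246 and 1204 in IAF, and 564 and 713 in OAF. With edgeR they were 588 and 587 in NP, 613 and 738 in IAF, and 645 and 372 in OAF, and it called 1 gene in NP and 1 in IAF, neither a member. The difference of the Hoxc6 change between OAF and NP was -0.26 (95% interval -0.75 to 0.23, adjusted p = 0.496).

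OAF markers within OAF cells summed to 53297 to 77510 CPM in CON and 42320 to 73950 CPM in LDP, and within IAF cells to 4080 to 9751 CPM in CON and 2084 to 2900 CPM in LDP, without overlap. Their part in the Hoxc6 difference of IAF cells was not tested. CON and LDP cells had been clustered apart by the authors.

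The second comparison was of the compartments of the disc, and as clusters were drawn from the same cells it is a description. Each of the 10 genes was higher in OAF than in NP cells in all 8 libraries of 2 weeks. The share of all genes with that order was not counted. The sum of the 10 was 88.1 CPM ± 14.5 in OAF, 25.8 CPM ± 6.67 in IAF and 23.7 CPM ± 5.21 in NP cells of CON, and 69.8 CPM ± 10.1, 17.6 CPM ± 2.46 and 20.3 CPM ± 4.38 in LDP. The OAF to NP ratio of the sum had a median of 3.60 and ranged from 2.62 to 4.79.

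The ratio was not the same for all genes. Hoxc5 (median 8.46, range 4.51 to 19.0) and Hoxb3 (median 8.08, range 4.65 to 16.1) had the highest OAF to NP ratios. Hoxc6 (4.74), Hoxb6 (4.40) and Hoxb4 (3.84) followed, and then Hoxb7 (3.24), Hoxb2 (3.18), Hoxc4 (2.80) and Hoxb8 (2.52). Hoxb9, the most caudal of the set, had the lowest (median 2.17, range 1.15 to 3.41). The ranges of neighbours in this order overlapped, while the lowest Hoxb3 and Hoxc5 ratios lay above the highest Hoxb9 ratio.

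Hoxb3 stood in OAF cells at 3.98, 2.40, 4.87 and 7.17 CPM in CON and 4.71, 4.29, 7.40 and 4.17 CPM in LDP. It stood in NP cells at 0.502, 0.452, 1.05 and 0.872 CPM in CON and at 0.293, 0.557, 0.731 and 0.354 CPM in LDP. All 8 OAF libraries lay above all 8 NP libraries, an order that was not counted over all genes. Of the 10 genes, Hoxb3 and Hoxb4 were the members whose LDP mean in OAF cells was above that of CON (5.14 against 4.61 CPM and 15.1 against 14.0 CPM). The highest LDP value of Hoxb3 was that of rat 3. The fitted log2 difference of Hoxb3 was 0.17 with limma (adjusted p = 0.842) and -0.12 with edgeR (adjusted p = 0.957), so its direction turned with the method.

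Hoxc5 stood in OAF cells at 4.51, 6.00, 4.76 and 6.94 CPM in CON and 3.99, 4.80, 2.37 and 2.61 CPM in LDP, and at 0.209 to 0.817 CPM in the 8 NP libraries. IAF and NP cells were not ordered. The IAF to NP ratio of the sum had a median of 0.946 (0.805 to 1.26), with IAF higher in 3 of 8 libraries, and no member was higher in IAF in more than 6 of 8. Median depth was 6997 to 10580 UMIs per cell in NP, 2442 to 6403 in IAF and 3258 to 7178 in OAF libraries. At 1000 UMIs per cell, 8.18% ± 1.02 of OAF cells of CON held a UMI of any member, against 2.62% ± 0.499 of IAF and 2.22% ± 0.423 of NP cells.

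**Figure D3:**
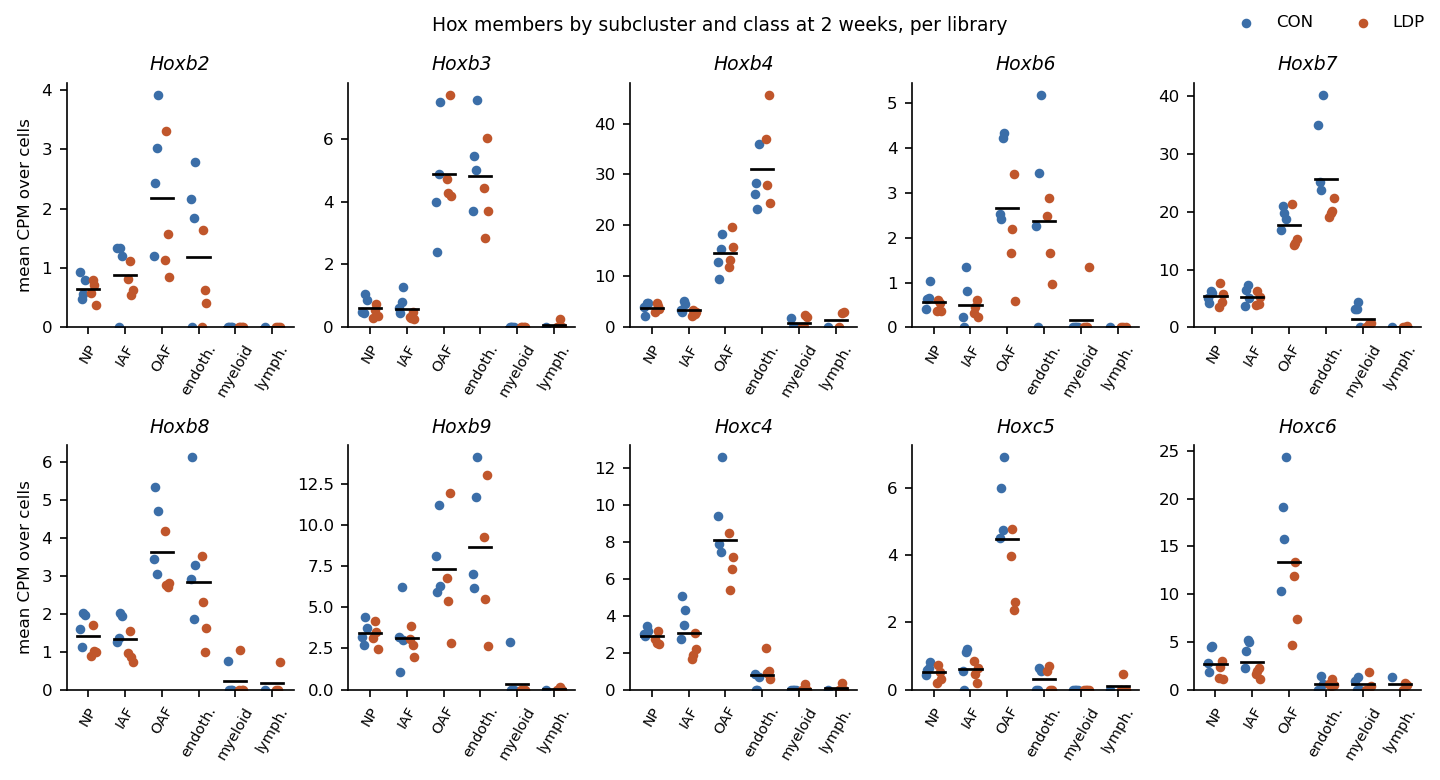
Level of each of the 10 genes at 2 weeks in NP, IAF and OAF cells and in the endothelial, myeloid and lymphoid classes, as mean CPM over cells (vertical axis, own scale in each panel), with 1 point per library (CON and LDP in different colours) and a bar at the mean. Hoxb4, Hoxb7 and Hoxb9 have their highest means in endothelial cells in both groups, while Hoxc4, Hoxc5 and Hoxc6 are high in OAF and near 0 in endothelial cells.

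Endothelial cells had a summed level close to that of OAF cells, with little of it from Hoxc genes. The sum of the 10 was 83.8 CPM ± 18.4 in CON and 72.9 CPM ± 14.8 in LDP at 2 weeks, and the endothelial to OAF ratio had a median of 0.997 (0.814 to 1.15). The 7 Hoxb genes made up nearly all of it, 82.6 CPM ± 17.9 in CON and 70.8 CPM ± 14.2 in LDP, against 55.8 and 50.1 CPM in OAF cells, where they were also the larger part. The 3 Hoxc genes summed to 1.19 CPM ± 0.942 and 2.15 CPM ± 0.958, against 32.3 CPM ± 8.57 and 19.6 CPM ± 2.91 in OAF cells.

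Hoxb4 was the clearest gene on the endothelial side. It stood at 26.2, 28.4, 23.3 and 35.9 CPM in CON and 36.9, 28.0, 45.7 and 24.4 CPM in LDP of rats 1 to 4. In OAF cells of the same libraries it stood at 12.8, 9.54, 15.5 and 18.3 CPM and at 11.8, 13.3, 19.7 and 15.7 CPM. Every endothelial library lay above every OAF library, with a median ratio of 2.07 (1.51 to 3.13). How many of all genes have that order was not counted. Hoxb7 was higher in endothelial than in OAF cells in 7 of 8 libraries (median ratio 1.38), Hoxb9 in 6, Hoxb6 in 4, Hoxb3 in 3, and Hoxb2 and Hoxb8 in 1 each.

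Hoxc6 in endothelial cells was listed at 0, 0, 1.41 and 0.588 CPM in CON and at 0.567, 0.423, 1.13 and 0.464 CPM in LDP at 2 weeks. It was below the OAF level of the same library in 8 of 8 libraries, as were Hoxc4 (at most 2.24 CPM) and Hoxc5 (at most 0.709 CPM), all at 2 weeks. In endothelial LDP cells of 8 weeks, 55 to 225 cells a library, Hoxc4 stood at 2.52, 8.60, 1.10 and 1.29 CPM in rats 5 to 8, from 1 to 3 UMIs each, with a mean of 3.38 CPM beside 2.77 CPM in IVD cells. Hoxc6 stood there at 0, 5.60, 0 and 0.592 CPM, and Hoxc5 was listed at 0 in all 4. Over the 12 libraries with endothelial cells, Hoxc4 was above its IVD level in 2, Hoxc6 in 1 and Hoxc5 in 0. In all, 16 Hoxc6 UMIs were found in 7057 endothelial cells of 12 libraries, in 0.227% of cells, against 0.0997% of 8021 lymphoid and 0.292% of 1712 myeloid cells. These shares rest on 16, 8 and 5 UMIs, at median depths of 1685 to 5274 UMIs in endothelial, 1319 to 5296 in lymphoid and 2479 to 8265 in myeloid libraries, and neither expression nor a difference between these classes is read from them.

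As a share of the UMIs of all 10 genes, Hoxc4 to Hoxc6 made up 49 of 1295 in endothelial cells, with a median of 3.58% over 12 libraries (0% to 13.2%). In IVD cells they made up 5732 of 21179, with a median of 26.1% over 16 libraries (13.2% to 35.4%). The medians in OAF (30.0%), IAF (29.3%) and NP cells (30.2%) lay side by side. The 4 endothelial CON libraries of 2 weeks ran from 0% (0 of 83 UMIs, 95% Clopper-Pearson interval up to 4.35%) to 2.68% (0.556% to 7.63%), the 4 LDP libraries from 3.35% (1.36% to 6.78%) to 10.7% (4.03% to 21.9%). These intervals cover counting error only.

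**Figure D4:**
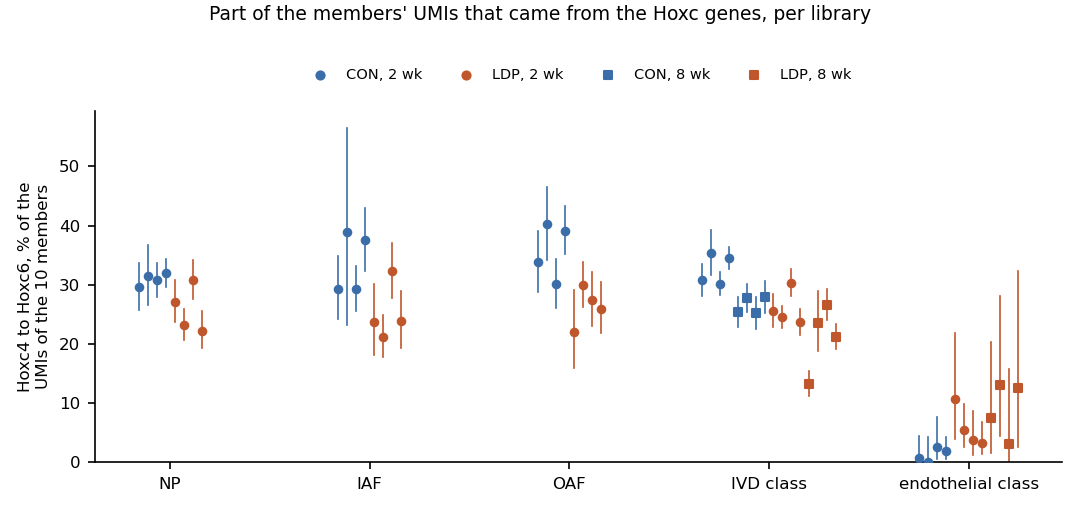
Percentage of the UMIs of the 10 genes that came from Hoxc4, Hoxc5 and Hoxc6 (vertical axis) in NP, IAF, OAF, IVD and endothelial cells, with 1 point per library and 95% Clopper-Pearson intervals, CON and LDP in different colours and 2 and 8 weeks as circles and squares. Endothelial libraries reach at most 13.2%, and in IVD cells the LDP library of rat 5 is lowest at 13.2%.

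Within IVD cells the Hoxc share was lower in LDP than in CON in most rats. No test was made, and the share rests on the same UMIs as the Hoxc levels above. At 2 weeks it was 30.8%, 35.4%, 30.2% and 34.5% in CON and 25.6%, 24.6%, 30.3% and 23.7% in LDP. At 8 weeks it was 25.4%, 27.7%, 25.2% and 27.9% in CON and 13.2%, 23.6%, 26.6% and 21.2% in LDP. It was lower in LDP in 6 of 8 rats, the exceptions being rats 3 and 7, and the groups overlapped at both times. In OAF cells it ran from 30.1% to 40.2% in CON and from 22.02% to 29.9% in LDP, without overlap. The groups overlapped in IAF cells, with 29.3% to 38.9% in CON and 21.1% to 32.3% in LDP, and in NP cells, with 29.7% to 32.0% and 22.3% to 30.8%, and rat 3 was not lower in either.

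In the endothelial class no member was called between LDP and CON at 2 weeks, where 0% of the 11315 genes tested were called in either direction by limma, 144 genes were higher and 446 lower at an unadjusted p under 0.05. With edgeR 310 were higher and 246 lower at that threshold, and 48 genes were called, all higher. Hoxb4 differed by 0.22 (adjusted p = 0.981). Hoxb7 stood at 35.1, 25.1, 23.8 and 40.3 CPM in CON and at 19.2, 19.8, 20.1 and 22.3 CPM in LDP, without overlap, and differed by -0.55 (adjusted p = 0.945). It was lower in LDP in all 4 rats, as were 9.31% of genes. The share of all genes without overlap in this class was not counted. The endothelial class is not given for CON at 8 weeks, and its LDP libraries of 8 weeks held 225, 55, 175 and 207 cells, with a sum of the 10 genes of 65.7 CPM ± 30.7.

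The unnamed class, 5379 cells with 23 to 801 in a library, held 688 UMIs of the 10 genes and was not alike in the 4 groups. In CON at 2 weeks the 7 Hoxb genes summed to 26.4 CPM ± 12.9 and the 3 Hoxc genes to 20.8 CPM ± 9.65, and in LDP to 21.4 CPM ± 14.4 and 4.23 CPM ± 1.94, where the Hoxc sums did not overlap. In CON at 8 weeks the Hoxb genes summed to 48.5 CPM ± 21.2 and the Hoxc genes to 0.921 CPM ± 0.730, with a Hoxc share of 0% to 7.27%. In LDP at 8 weeks they summed to 1.74 CPM ± 3.49 and 2.72 CPM ± 4.92. The group means of endothelial markers had the same order as those of the Hoxb sum and not as those of the Hoxc sum. These marker means were 1547 and 877 CPM in CON and LDP at 2 weeks and 3183 and 184 CPM at 8 weeks. The part of the markers was not tested. As the class was drawn in each group apart, its groups are given side by side.

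Few UMIs of these genes were found in the myeloid and lymphoid classes. Over all libraries 44 UMIs of the 10 genes were found in myeloid cells and 82 in lymphoid cells, with Hoxb4, a gene also used in blood stem cells, accounting for 50 of the lymphoid and 20 of the myeloid UMIs. Hoxb4 UMIs lay in 0.499% of lymphoid and 1.11% of myeloid cells, against 2.40% of IVD and 6.04% of endothelial cells, over all libraries and at unequal depth. At 1000 UMIs per cell the group means of that share were 0% to 0.0973% in myeloid, 0% to 0.213% in lymphoid, 0.255% to 0.503% in IVD and 2.41% to 2.90% in endothelial cells, so myeloid and lymphoid cells are not ordered. Hoxb6 was found in 0 of 8021 lymphoid cells, which allows a share of up to 0.0374%, and Hoxb2 and Hoxc5 in 0 of 1712 myeloid cells, which allows up to 0.175%. Each limit is 3 divided by the number of cells. It pools the cells of all libraries as if they were independent, and so leaves out the spread between libraries and rats. These limits are on cells with a UMI at the depths above, and not on cells that express the gene. At 1000 UMIs per cell, the share with any member was at most 0.542% in a lymphoid and 1.64% in a myeloid library.

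The third comparison was of 8 with 2 weeks. Hoxb7 was higher at 8 weeks in IVD cells of CON. It stood at 6.09, 6.85, 8.08 and 6.95 CPM in CON of 2 weeks and at 11.3, 12.6, 11.4 and 9.72 CPM in CON of 8 weeks. In LDP it stood at 4.74, 8.08, 5.18 and 7.01 CPM at 2 weeks and at 10.97, 8.62, 7.47 and 11.8 CPM at 8 weeks. In the IVD class the CON groups did not overlap and the LDP groups did. Over all cells the CON groups overlapped too, at 8.16 to 9.80 CPM (mean 8.80) at 2 weeks and 9.39 to 11.1 CPM (mean 10.3) at 8 weeks, a smaller difference than in the IVD class. The share of all genes whose CON groups did not overlap between the times was not counted. The authors clustered each group apart, and CON of 8 weeks holds no endothelial class.

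In CON, Hoxb7 rose by 0.61 (SE 0.113, adjusted p = 0.00744), the call for 1 of 8 members above the limit in these 8 libraries, where 6.82% of 11224 genes were called higher and 11.4% lower. Markers moved in the same comparison: 3 of 5 IVD markers were called lower at 8 weeks (median -0.70), 4 of 6 OAF markers (median -0.76) and 3 of 4 tested endothelial markers (median -1.52). The summed OAF markers of CON, given above for each time, did not overlap between the times, and Hoxb7 itself was higher in OAF than in NP cells (19.1 against 5.36 CPM in CON of 2 weeks). The part of these markers in the rise of Hoxb7 was not tested. In LDP it differed by 0.57 (SE 0.202) and was not past the threshold (adjusted p = 0.135), and Hoxb4 differed there by -0.55 (SE 0.175, adjusted p = 0.104). No member was called in LDP, where 1.04% of genes were called higher and 3.22% lower. The other members showed no difference past the threshold in CON, with medians of the 8 changes of -0.07 and of all genes of -0.02.

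Cells with several members were more frequent than depth alone gives. Within 10 bins of cell depth, IVD cells with at least 2 of the 10 genes were 1.40 times as many (median over 16 libraries, range 1.13 to 1.86) as the product of the genes' shares gives. In 43 of 45 pairs of members the observed number of IVD cells with both was above that product. Summed over the pairs, so that a cell with 3 or more members counts more than once, pairs from 1 cluster occurred 1346 times against 763 (ratio 1.76), and pairs of a Hoxb and a Hoxc gene 977 times against 701 (ratio 1.39). Hoxb3 and Hoxb4 were found together in 54 cells against 16.9, above the product in 15 of 16 libraries. Within OAF cells alone the ratios were 1.58 for pairs of 1 cluster and 1.15 for the others, and within NP cells 1.58 and 1.21. Within IAF cells they were 1.31 and 1.02, and 6 of 21 pairs of a Hoxb and a Hoxc gene lay above the product there (42 occurrences against 41.1). The numbers per pair are small, and no test was made.

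Levels were correlated across the 16 libraries of IVD cells, as a description over points that share animals and depth. Differences between CON and LDP and between the times were left in, so each r holds them too. Hoxc6 ran with Hoxb8 (Pearson r = 0.85), Hoxc4 (0.80) and Hoxb4 (0.72), while Hoxb7 ran with none of the other tested members (r from -0.19 to 0.17). The genes nearest to the sum of the 10 were Map3k3 (r = 0.886), Irf2 (0.881), Hoxc8 (0.870), Pawr (0.865) and Hoxc9 (0.852) out of 11144. Nearest to Hoxc6 were Fam214a (0.926) and Dennd4a (0.922). Nearest to Hoxb7 were Ripor1 (0.895), Gatc (0.885) and the Polycomb gene Cbx7 (0.884). Nearest to Hoxb8, Hoxb4, Hoxb9 and Hoxc4 were Rit1 (0.935), Zfp358 (0.933), Arhgap26 (0.858) and Fam214a (0.886).

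Other genes of the Hox pathway were given by lists in the same mean LDP effect of IVD cells. Of the 13 other Hox genes listed, 6 could be tested: Hoxd10 rose by 2.47 and Hoxd9 by 0.87, Hoxc8 fell by 1.12 and Hoxc9 by 0.40, and Hoxd8 and Hoxc10 differed by 0.08 and -0.10. The call of Hoxc9 was lost after centring (adjusted p = 0.124) and with edgeR (adjusted p = 0.0915), and Hoxc10 turned to 0.04 and 0.01. Hoxd10 of the CON library of rat 1 stood apart at 4.77 CPM, against 0.278 to 0.997 CPM in the other 7 CON libraries and 6.02 to 12.9 CPM in the 8 LDP libraries, so that it lay between them. In that library Hoxc6 was the lowest of the 8 CON libraries (3.60 CPM). The cause was not tested, and without rat 1 Hoxc6 fell by 0.87 (adjusted p = 0.0479). Hoxc9 was scarce in endothelial cells like Hoxc4 to Hoxc6, at 2.22 CPM ± 1.20 in CON of 2 weeks against 68.2 CPM ± 15.7 in OAF cells.

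Of 9 TALE cofactors, all tested, 1 fell, Pbx3 by 0.38 (adjusted p = 0.0432), and the median of the 9 was -0.20. After centring none fell and 2, Pbx4 and Pknox1, were called higher, and with edgeR none fell and Pknox1 was called higher, while 6 of the 9 lay below 0 in each. The adjusted p of Pbx3 was 0.0898 and 0.0680 there. Of 12 upstream inputs (Cdx factors, Gdf11, the retinoic acid receptors and enzymes, and the notochord factor Tbxt) 5 were tested and none was called, with the retinoic acid receptor Rara closest at -0.44 (adjusted p = 0.0506). Of 18 Polycomb and trithorax genes 17 were tested, 2 fell and 0 rose, beside 5.68% of all genes called lower. Jarid2 is among those that fell, by 0.56 (adjusted p = 0.0445), and all 17 lay below 0, with a median of -0.29 beside -0.12 over all genes. After centring 14 of the 17 lay below 0 and with edgeR 15, with 1 called in each, and Jarid2 was past the threshold in neither (adjusted p = 0.0551 and 0.0893).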

How the data were processed

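Tables of single cells were deposited for 16 libraries. Per the labels and the study's methods, reads of 10x Genomics 3′ v3.1 libraries were processed in Partek Flow, with rn6 named in the submitters' processing notes; the aligner, the annotation, and any step for doublets or ambient RNA were not given in the sources used here, and no doublets were removed here. Cells had been kept by the authors with under 10% mitochondrial reads, 500 to 3000 genes and 500 to 30000 UMIs, and each group was clustered apart by K-means. The gene values deposited by the authors are log2(CPM + 1) of each cell. The cell total deposited by the authors is a sum of expected counts, which need not be whole. The deposited percentage of mitochondrial reads was read as a percent and used as a check of the filter. With the cell total, 99.4% of values above 0 came back as whole reads within 0.02.

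CPM was recovered per cell and averaged over the cells of a class in each library with at least 20 cells. Main tests were limma 3.58.1 (R 4.3.3) on log2(mean CPM + 1), with the rat as block for LDP against CON, genes listed in every group fitted with a mean of at least 1 CPM, and Benjamini-Hochberg adjustment over all genes tested at 0.05; a change therefore understates the fold of low genes. edgeR 4.0.16 and DESeq2 1.42.0 on rounded summed counts were alternatives, as were other pseudocounts, limits, scalings and cells and leaving out each rat. The fits were tested on simulated data. Differences between classes, shares of cells, sums over members, pairs of genes in a cell and correlations have no test. Shares of cells were taken after drawing 1000 UMIs from each cell.

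Libraries of 1 rat were paired because they come from the same animal. Deviations of the 2 libraries of a rat from their group means correlated with r of -0.185 to 0.465. Subclusters are numbered in the tables of 2 weeks. Their names were settled by counts of positive cells that the study shows for each named subcluster, and by markers, and which is NP and which IAF remains uncertain.

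All 10 members are named. Other lists are given by counts, with those past the threshold or else closest to it named, except 1 gene past it that is not reported here. The rule names the members and uses no measured value, but members, lists and tests were chosen with earlier results of these data known. No sequence is printed, since the reference sequences at hand hold the promoter of 1 of the 10 genes (Hoxc4) and no genome of the build.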

Additional observations from a re-analysis of the deposited data

Results flagged for a closer look

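Of 143 groups of 4 libraries looked at (each member in each class or subcluster), 8 held 1 library far from the other 3, and chance marks about 1 group in 20.

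In IVD cells, Hoxc6 of the LDP library of rat 5 at 8 weeks was lowest at 0.815 CPM, beside 2.44 to 2.51 CPM in the other 3; without rat 5 the mean LDP effect of Hoxc6 was -0.76 (adjusted p = 0.0324). Hoxb8 of the LDP library of rat 2 at 2 weeks was highest at 1.80 CPM, beside 1.09 to 1.15 CPM. Hoxb2 of the CON library of rat 2 was lowest at 0.651 CPM, beside 1.18 to 1.24 CPM.

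In IAF cells, Hoxb2 of the same CON library was listed at 0 CPM, beside 1.19 to 1.34 CPM. In OAF cells of LDP at 2 weeks, Hoxb3 of rat 3 was highest at 7.40 CPM (others 4.17 to 4.71), and rat 1 was highest for Hoxb7 at 21.3 CPM (others 14.3 to 15.2) and for Hoxb8 at 4.17 CPM (others 2.70 to 2.80). In endothelial cells of LDP at 8 weeks, Hoxc6 of rat 6, a library with 55 such cells, was highest at 5.60 CPM, beside 0 to 0.592 CPM.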

How the results depend on the processing

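The mean LDP effect of Hoxc6 in IVD cells stayed past the threshold with a change from -0.46 to -1.19 under the alternatives in which IVD cells were kept and the gene was tested, and from -0.76 to -0.98 with each rat left out (adjusted p of 0.0176 to 0.0479). Over all cells it did not pass (-0.84, adjusted p = 0.0564), and at a limit of 5 CPM it was not tested. Hoxb8 lost its call with edgeR (0.0522), a pseudocount of 5 (0.0857), centring (0.0611), all cells (0.0752) and edgeR with no filter (0.0601, an alternative chosen after seeing the data). The difference of Hoxb4 at 2 weeks turned to 0.013 after centring and ran from -0.31 without rat 2 to 0.043 without rat 1, that of Hoxb4 in endothelial cells ran from -0.027 without rat 3 to 0.47 without rat 4, and that of Hoxc6 between the times to 0.0030 without rat 5.

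Of the members, 2 were called in the mean effect of IVD cells, 3 with no filter on low values (Hoxc5 added), 1 with edgeR, edgeR with no filter, a pseudocount of 5 or centring, 0 at 5 CPM or over all cells, and 1 to 2 with each rat left out. DESeq2 called 1 member (Hoxc6) at 2 weeks and 1 at 8 weeks, where leaving out a rat gave 0 to 1 (Hoxc6 without rat 4, adjusted p = 0.0397). Pairing was by animal, and without the rat block 1 member was called over all cells (Hoxc6, adjusted p = 0.0474), as with edgeR (1, adjusted p = 0.0442); the block changed no other call of a member. For 8 against 2 weeks in CON a pseudocount of 0.1 called 2 members, Hoxc5 being the added one.

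Counts of all genes moved more, and the cause was not tested. For IVD cells at 2 weeks 14 genes were called, against 23 with edgeR, 282 with DESeq2, 5 without the rat block, 0 and 2 with pseudocounts of 0.1 and 5, 28 after centring, 0 over all cells and 0 to 7 with a rat left out. At 8 weeks 30 were called, against 572 with DESeq2, 83 and 15 with pseudocounts of 0.1 and 5, 1 over all cells and 0 to 505 with a rat left out. For the mean effect 852 were called, against 1823 with DESeq2, 532 at 5 CPM, 99 over all cells and 156 to 756 with a rat left out. For the difference between the times 0 were called, against 12 with DESeq2, 3 without the block, 1 in cells of at least 2000 UMIs and 0 to 13 with a rat left out. Over all cells at 8 weeks 1 gene was called, against 3 without the block, 2 with edgeR and 0 to 1 with a rat left out; with a rat left out 2 weeks gave 0 to 1 and the mean effect 1 to 27. In NP and in IAF 0 were called, against 1 with edgeR and 1 with edgeR and no filter. In OAF 129 were called, against 85 with a pseudocount of 0.1 and 76 to 131 with a rat left out. In endothelial cells 0 were called, against 48 with edgeR, 97 with edgeR and no filter and 0 to 2 with a rat left out. For the difference of the LDP effect between OAF and NP 164 were called, against 99 with a pseudocount of 0.1 and 64 to 98 with a rat left out. Leaving out 1 library gave 984 to 2329 calls for 8 against 2 weeks in CON (2041 with all) and 135 to 1437 in LDP (468 with all).

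Shares of cells depend on depth: thinned to 2000 UMIs, the share with any member was 5.72% in CON and 4.58% in LDP at 2 weeks and 6.16% and 4.18% at 8 weeks in IVD cells, 4.47% and 4.01% in NP and 15.6% and 12.4% in OAF cells.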
